A study of Mus musculus with 6 samples.

Results

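The NMDA receptor is the glutamate-gated channel through which the synaptoneurosomes of this study were stimulated, and its subunits are read here as mRNAs. The members are Grin1, Grin2a, Grin2b, Grin2c, Grin2d and Grin3a, chosen by name and not by a cut on their values. Earlier results of these data were known when they were chosen. They are 6 of the 21958 protein-coding genes in the deposited count table, and all 6 were among the 12255 genes that passed the filter on low counts. Grin3b, the remaining gene of the family, was outside the rule and was too scarce to test.

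Synaptoneurosomes, a brain fraction in which presynaptic and postsynaptic compartments stay attached, were prepared from the hippocampus and adjacent cortex of FVB mice aged 6 to 8 weeks. One group of 3 libraries held polyribosomal RNA from synaptoneurosomes given NMDA at 50 µM with glutamate at 10 µM for 30 s, followed by the receptor antagonist APV at 120 µM and 20 min of incubation, with the polyribosomal fractions of a sucrose gradient pooled. The other group of 3 libraries held total RNA of synaptoneurosomes that were not stimulated. According to the methods, material of several mice was combined and split into aliquots, so a library does not stand for 1 animal, and the label of each library carries a replicate number that occurs once in each group. The strain was the same for all libraries, and the labels give no genetic change for any. The methods describe unstimulated controls as kept on ice with cycloheximide, whereas stimulated samples were warmed and incubated. Stimulation, this handling and fraction changed together between the groups, so they cannot be told apart. A difference given here is polyribosomal RNA after stimulation and incubation against total RNA without them. The labels do not state that replicates came from separate animals, and the p-values therefore measure only the spread between these samples, which may be technical.

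An NMDA receptor is a tetramer that combines obligatory GluN1 subunits, which bind glycine or D-serine, with GluN2 subunits, which bind glutamate, or with glycine-binding GluN3 subunits. The channel opens when agonist and co-agonist are bound and depolarization relieves the magnesium block, and the calcium that enters starts the signaling behind many forms of synaptic plasticity. GluN2A and GluN2B are the main GluN2 subunits of the adult forebrain, GluN2C is best known from cerebellar granule cells, GluN2D from interneurons and the developing brain, and GluN3A lowers calcium permeability.

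The sequences around the start codon are shown for all 6 mRNAs because the subunits separated by base composition in the comparison that follows. Each window holds 9 bases before the start codon, the start codon in capitals and 18 bases after it, on the minus strand of GRCm38, from the longest basic coding transcript of Gencode vM21. The windows lie at chr2:25318866-25318895 in exon 1 of Grin1, chr16:9992513-9992542 in exon 3 of Grin2a, chr6:136044281-136044310 in exon 3 of Grin2b, chr11:115261112-115261141 in exon 4 of Grin2c, chr7:45866547-45866576 in exon 1 of Grin2d and chr4:49845061-49845090 in exon 1 of Grin3a.
Grin1: ccgaggctcATGagcaccatgcacctgctg
Grin2a: gtggcgaccATGggcagactgggctactgg
Grin2b: gagctgaagATGaagcccagcgcagagtgc
Grin2c: ccagtggacATGggtggagccctggggccc
Grin2d: ccgcaggcgATGcgcggcgccggtggcccc
Grin3a: gtctcagtaATGaggagactgagtttgtgg
Of the 30 bases, 26 were G or C in Grin2d, 22 in Grin2c, 20 in Grin2a, 19 in Grin1, 18 in Grin2b and 14 in Grin3a. Over the whole transcript the order was another one below Grin2d and Grin2c, with 65.0% G and C in Grin2d, 62.1% in Grin2c, 59.4% in Grin1, 49.2% in Grin3a, 45.7% in Grin2b and 44.8% in Grin2a. Grin2d, Grin2c and Grin1 thus stood in the top decile of tested genes by GC content.

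The most conserved stretch of the pore, in the third membrane segment, is shown to let the reader see how far the mRNAs of a conserved protein region differ. The 21 bases below encode the same 7 residues in all 6 subunits, and capitals mark a G or C at the third position of a codon. They lie on the minus strand of GRCm38 at chr2:25297202-25297222 in exon 15 of Grin1, chr16:9653450-9653470 in exon 10 of Grin2a, chr6:135772247-135772267 in exon 10 of Grin2b, chr11:115253752-115253772 in exon 11 of Grin2c, chr7:45854282-45854302 in exon 8 of Grin2d and chr4:49770473-49770493 in exon 3 of Grin3a.
Grin1: taCactgcCaaCctGgcagcC
Grin2a: taCacagcCaaCctGgctgcC
Grin2b: taCactgcCaaCttagcCgcC
Grin2c: taCacGgcCaatctGgcagcC
Grin2d: tatacagcCaatctGgctgcC
Grin3a: taCacagcGaaCttGgctgct
Although the residues are the same, any pair of these windows differed at 2 to 6 of the 21 bases. Grin1 and Grin2a differed at 2, and Grin2b and Grin2d at 6. A G or C stood at the third position in 5 of 7 codons in Grin1, Grin2a, Grin2b and Grin2c, in 4 of 7 in Grin3a and in 3 of 7 in Grin2d, so Grin2d, with the highest GC content of the whole transcript, had the fewest in this window.

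The mRNAs were first compared in abundance. To compare genes of different length, counts scaled to library size (CPM) were divided by the length of the longest annotated transcript in kilobases. On this scale Grin1 was the most abundant subunit, with 245 ± 52.1 CPM per kb on polyribosomes and 171 ± 6.71 in total RNA (mean ± SD, n = 3). Grin2b followed with 89.2 ± 13.0 CPM per kb on polyribosomes and 112 ± 25.1 in total RNA, and Grin2a with 49.1 ± 6.37 and 59.8 ± 8.67. The rarer subunits were Grin2c at 41.8 ± 5.92 and 23.9 ± 2.15 CPM per kb, Grin3a at 16.6 ± 3.40 and 16.4 ± 3.12, and Grin2d at 6.55 ± 1.53 and 4.01 ± 0.68. This order was the same in each of the 6 libraries. Grin2a and Grin2c, neighbors in the order, overlapped in their ranges on polyribosomes but not in total RNA.

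The order depended on the length used, since the transcripts of Grin2a and Grin2b are mostly 3′UTR. The longest transcript of Grin2b has 24060 bases, of which 18865 are 3′UTR, and that of Grin2a has 14634 with 9929, whereas Grin1 has 4276 bases with 1187 and Grin2c has 4895 bases with 402. Per kilobase of coding sequence, Grin2b stood first with means of 483 CPM per kb on polyribosomes and 604 in total RNA, ahead of Grin1 with 364 and 254. In total RNA the order of Grin3a and Grin2c also turned, at 36.1 and 31.5 CPM per coding kb. Which transcript ends were present was not measured, so the rank of Grin1 against Grin2b is not settled by these counts.

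**Figure D1:**
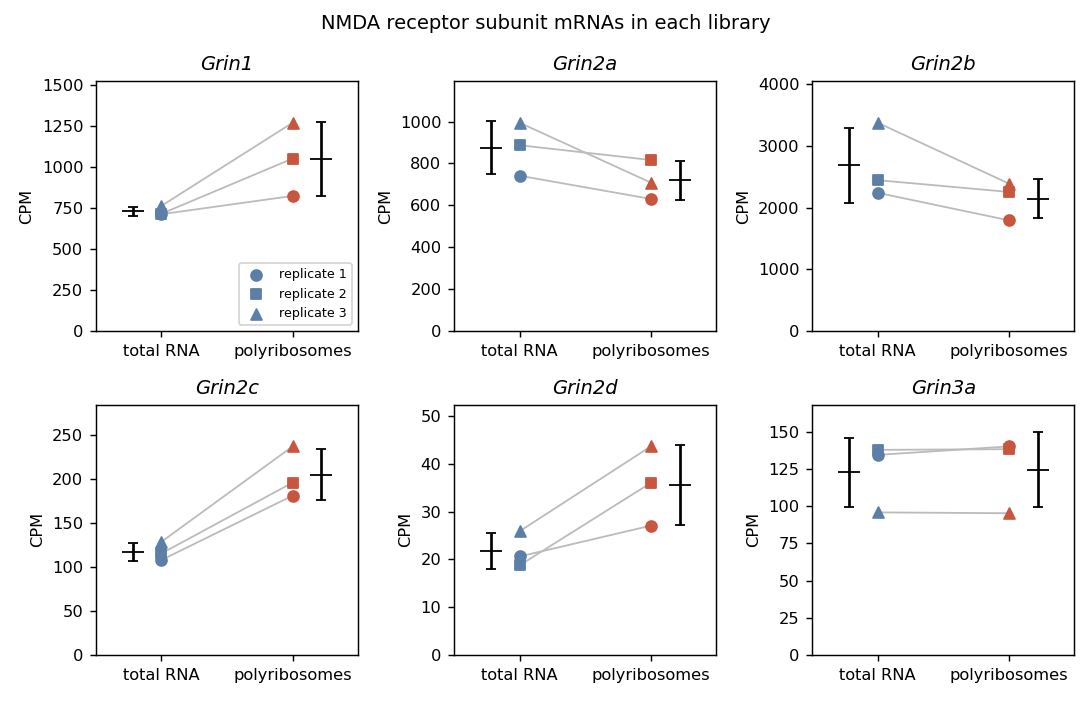
CPM (vertical axes, from 0) of the 6 NMDA receptor subunit mRNAs in total RNA and on polyribosomes. Each symbol is a library, gray lines join libraries with the same replicate number, and black bars give the mean ± SD of 3 libraries. The polyribosome libraries of Grin1, Grin2c and Grin2d all lie above the total RNA libraries, whereas the groups overlap for Grin2a, Grin2b and Grin3a.

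Then the groups were compared gene by gene, to ask which subunit mRNAs had a larger share of polyribosomal RNA than of total RNA. Of the 6 subunits, 1 rose on polyribosomes, Grin2c, by 1.75-fold, and 0 fell, in edgeR's quasi-likelihood test at a Benjamini-Hochberg adjusted p under 0.01 over all 12255 genes. The same test called 0.71% of all genes higher and 2.36% lower. At an unadjusted p under 0.05, 3 subunits were higher (Grin1, Grin2c and Grin2d) and 0 were lower, against 15.4% and 17.1% of all genes. The log2 change was positive for 4 of the 6, against 50.1% of all genes. These include Grin3a, whose sign turned in 4 alternatives. With the offset described next all 6 were positive. The share of all genes positive with it was not counted, and their median log2 change was 0.026. DESeq2 at the adjusted threshold called 1 higher and 0 lower, against 2.19% and 3.28% of all genes. In the same 3 subunits, and in no direction for the others, the 3 polyribosome libraries did not overlap with the 3 total RNA libraries. Such a separation was found for 17.4% of all genes in the higher direction and for 18.9% in the lower.

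Libraries with the same replicate number deviated together, and the number was therefore also entered as a block. With it, Grin1, Grin2c and Grin2d rose and 0 subunits fell, but 11.8% of all genes were called higher and 13.2% lower in that fit. An offset for the GC content and length of the transcript left 0 subunits called in either direction without the block, where 0.31% of genes were called higher and 0.694% lower. With block and offset together, 1 subunit rose, Grin2c, against 9.62% of genes higher and 6.56% lower. The values of each subunit under these models are given with it.

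Grin1 encodes GluN1, the subunit without which no NMDA receptor forms. It had 824, 1051 and 1269 CPM in polyribosome replicates 1 to 3 and 712, 715 and 763 CPM in total RNA replicates 1 to 3. All polyribosome values lay above all total RNA values, and the spread was wide on polyribosomes and narrow in total RNA. The fold change was 1.44, a log2 change of 0.52 ± 0.19 (SE), with an adjusted p of 0.0707 in edgeR's quasi-likelihood test. With the replicate block it was 0.50 ± 0.13 and was called, with an edgeR adjusted p of 9.68e-04. With the GC and length offset it was 0.26 ± 0.17, with an edgeR adjusted p of 0.350, and with block and offset 0.25 ± 0.13, with an adjusted p of 0.130. In the annotation an antisense gene, Grin1os, shares 1307 of the 9700 exonic bases of Grin1, and since the sources used here do not state whether reads were counted by strand, a part of these counts may belong to it.

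Grin2a encodes GluN2A, one of the main glutamate-binding subunits of adult forebrain synapses. It had 631, 817 and 709 CPM on polyribosomes and 742, 887 and 994 CPM in total RNA. The groups overlapped, although within each replicate number the polyribosome value was the lower one. The log2 change was -0.28 ± 0.18, with an adjusted p of 0.304 by edgeR's quasi-likelihood test, and -0.28 ± 0.12, with an adjusted p of 0.0708, under the block, and it turned to 0.18 ± 0.17 with the GC and length offset and to 0.17 ± 0.13 with block and offset. No change in Grin2a was therefore called in any of these models, and its direction depended on the offset.

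Grin2b encodes GluN2B, the binding partner of CaMKII and the subunit with the most counts of the 6. It had 1795, 2254 and 2389 CPM on polyribosomes and 2240, 2445 and 3375 CPM in total RNA. As for Grin2a, the groups overlapped and every polyribosome library was below the total RNA library of its number. The log2 change was -0.32 ± 0.20, with an adjusted p of 0.290 by edgeR's quasi-likelihood test, and -0.31 ± 0.13, with an adjusted p of 0.0472, under the block, and it turned to 0.17 ± 0.18 with the GC and length offset and to 0.17 ± 0.14 with block and offset. Transcripts annotated on the opposite strand (Gm14329, Gm22892 and Gm26653) share 143, 86 and 49 of its 24842 exonic bases, and Gm14330 shares 0.

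Grin2c encodes GluN2C, whose channels are less sensitive to magnesium block. It had 181, 196 and 237 CPM on polyribosomes and 108, 115 and 129 CPM in total RNA. The groups were well apart, and the 3 same-numbered pairs gave log2 differences of 0.74, 0.76 and 0.88. The fold change of 1.75 corresponded to a log2 change of 0.81 ± 0.17, with an adjusted p of 0.00965 in edgeR's quasi-likelihood test, close to the threshold of 0.01. Scaling by library totals alone also ended the call, with an edgeR adjusted p of 0.0135. Leaving out any 1 of the 6 libraries ended it as well, with adjusted p between 0.0109 and 0.0659 in edgeR and log2 changes between 0.70 and 0.89. With the block it was 0.79 ± 0.13, with an edgeR adjusted p of 1.74e-07. The offset lowered it to 0.46 ± 0.15, with an edgeR adjusted p of 0.0666, and with block and offset it was 0.46 ± 0.12, with an adjusted p of 0.00139. An annotated miRNA on the opposite strand, Gm25837, shares 91 of its 5037 exonic bases.

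Grin2d encodes GluN2D, which forms channels of slow deactivation. It was the scarcest subunit, with 200, 239 and 212 counts on polyribosomes and 83, 56 and 27 counts in total RNA, or 27.1, 36.0 and 43.6 CPM against 20.6, 18.8 and 25.9 CPM. The groups did not overlap, but the lowest polyribosome library and the highest total RNA library were close. The log2 change was 0.75 ± 0.22, with an adjusted p of 0.0347 in edgeR's quasi-likelihood test, and 0.67 ± 0.16, with an adjusted p of 4.15e-04, under the block, where it was called. With the GC and length offset it was not called, at 0.24 ± 0.19, with an edgeR adjusted p of 0.446, and at 0.21 ± 0.15, with an adjusted p of 0.327, with block and offset. The antisense gene Gm45441 shares 643 of its 6658 exonic bases, under the same limit on strand as for Grin1.

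Grin3a encodes GluN3A, a glycine-binding subunit of juvenile synapses. It had 140, 138 and 95.3 CPM on polyribosomes and 135, 138 and 95.9 CPM in total RNA. The 2 libraries of replicate number 3 were the low ones in both groups, and each pair was nearly level, with a mean pair difference of 0.02 ± 0.04 on the log2 scale (SD, n = 3). The log2 change was 0.01 ± 0.20, with an adjusted p of 0.987 in edgeR's quasi-likelihood test, and 0.22 ± 0.12, with an adjusted p of 0.165, with block and offset.

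**Figure D2:**
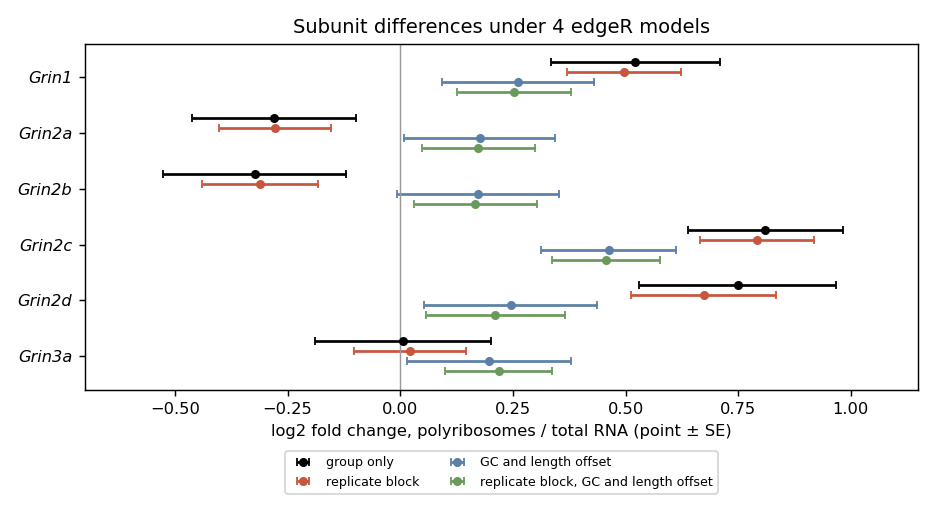
Log2 fold change (polyribosomes over total RNA, horizontal axis) of each subunit ± SE under 4 edgeR models, with group alone, with the replicate block, with an offset for the GC content and length of the transcript, and with both. Grin2c is positive in each, from 0.46 to 0.81, and Grin2a and Grin2b lie below 0 without the offset and above 0 with it.

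Grin3b encodes GluN3B, known from motor neurons. Its counts were 6, 2 and 2 on polyribosomes and 0, 0 and 0 in total RNA. Pooled, that is 10 of 19512624 counts, or 0.512 CPM, against 0 of 7690794, which allows up to 0.390 CPM (3 counts, counting error only). No test was made at this depth.

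Because a ratio of counts in 1 library needs no scaling between libraries, the balance of the main subunits was compared as ratios. Grin2b to Grin2a was 2.84, 2.76 and 3.37 on polyribosomes and 3.02, 2.76 and 3.39 in total RNA. The balance of both GluN2 mRNAs was nearly level within each pair, with a difference of -0.03 on the log2 scale (exact two-sided permutation test, p = 0.8), a mean pair difference of -0.03 ± 0.05 (SD, n = 3), and signs that turned when single libraries were left out.

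Grin2a to Grin1 was 0.766, 0.777 and 0.559 on polyribosomes and 1.04, 1.24 and 1.30 in total RNA. Grin2b to Grin1 was 2.18, 2.14 and 1.88 on polyribosomes and 3.14, 3.42 and 4.42 in total RNA. In both ratios the groups did not overlap, and relative to Grin1 the GluN2 counts were 0.582-fold for Grin2a and 0.570-fold for Grin2b on polyribosomes. The log2 differences were -0.78 and -0.81, each with p = 0.1 in the exact two-sided permutation test, the smallest p that 3 against 3 libraries allow (0.15 adjusted over the 3 ratios planned). Taken as pairs they were -0.78 ± 0.40 and -0.81 ± 0.37 (SD, n = 3), with an exact sign-flip p of 0.25, the smallest for 3 pairs. Neither could pass 0.05 in this design. The differences of the fitted changes shrank to -0.085 and -0.089 with the GC and length offset, an alternative added after the data were seen.

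The remaining ratios to Grin1 were computed after the values had been seen and are given as values alone. Grin2c to Grin1 was 0.220, 0.186 and 0.187 on polyribosomes and 0.151, 0.161 and 0.168 in total RNA, a log2 difference of 0.30. Grin2d to Grin1 differed by 0.20 and was higher on polyribosomes in all 3 pairs, although the groups overlapped, from 0.0328 to 0.0344 on polyribosomes and from 0.0262 to 0.0339 in total RNA. Grin3a to Grin1 differed by -0.48, and both groups overlapped. Of all counts per kilobase on the 6 mRNAs, Grin1 took 51.9%, 53.4% and 57.8% on polyribosomes and 47.0%, 44.6% and 41.5% in total RNA, the only subunit besides Grin2c and Grin2d whose share was larger in all 3 polyribosome libraries than in their paired total RNA libraries.

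**Figure D3:**
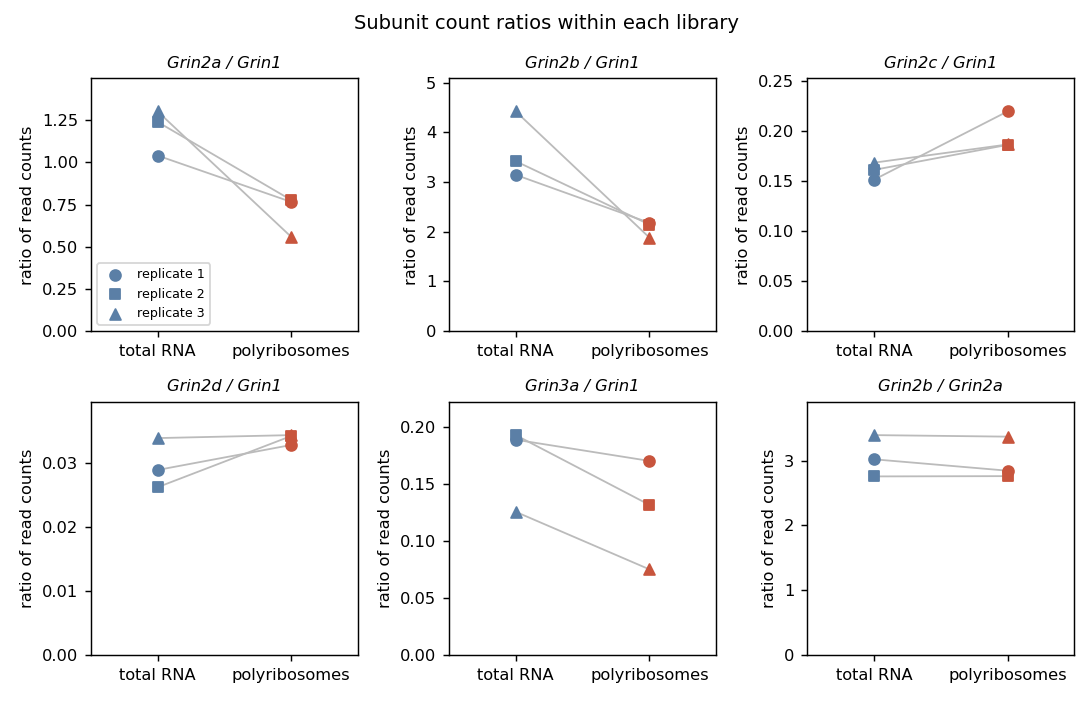
Ratios of read counts between subunits within each library (vertical axes, from 0), in total RNA and on polyribosomes, with gray lines joining the same replicate number. Grin2a and Grin2b relative to Grin1 lie lower on polyribosomes in all 3 pairs, a difference of -0.78 and -0.81 on the log2 scale that shrinks to -0.085 and -0.089 with the GC and length offset, while Grin2b relative to Grin2a is nearly level.

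The 3 subunits with the highest GC content were also the 3 with the highest fold changes. Across 12212 tested genes with an annotated transcript, the log2 fold change correlated with GC content (Pearson r = 0.54, Spearman's rho = 0.54) and with transcript length (r = -0.34, rho = -0.36), as a description over genes, which share libraries and are not independent. Grin1, Grin2c and Grin2d were in the top decile of genes by GC content, from 58.4% to 74.7%, where the median log2 change was 0.42. Grin2a and Grin2b were in the third decile, from 44.4% to 46.5%, with a median of -0.19, and Grin3a was in the fifth, with a median of -0.06. After the offset the correlation with GC content was -0.004. The offset was fitted on GC content over these same genes, so a low correlation followed from its construction. Whether composition bears on the subunits through the libraries or through the RNA was not tested.

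**Figure D4:**
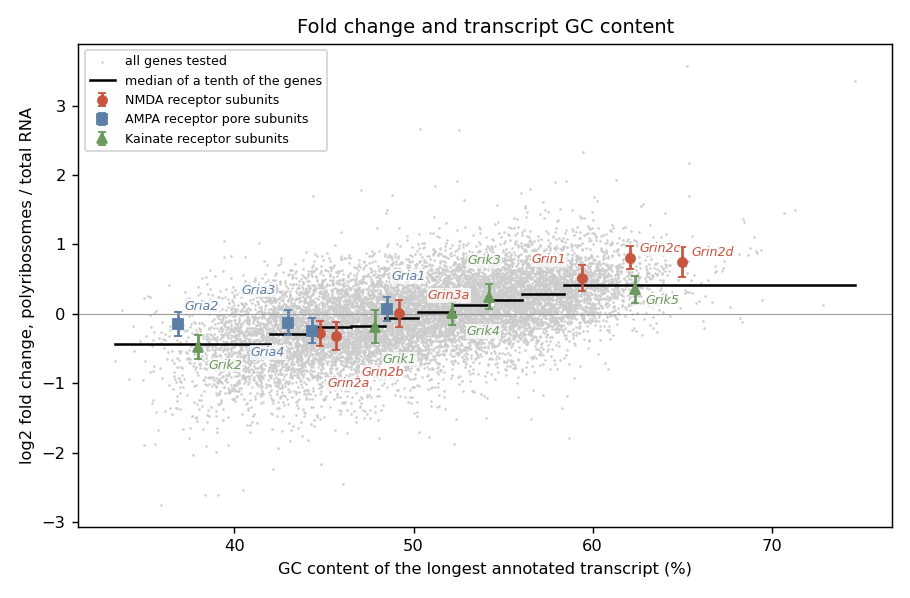
Log2 fold change (polyribosomes over total RNA, vertical axis) against the GC content of the longest annotated transcript (horizontal axis, %) for 12212 genes, with the NMDA, AMPA and kainate receptor subunits marked ± SE. Horizontal bars are the medians of the deciles of the genes, from -0.44 to 0.42, and Grin1, Grin2c and Grin2d lie in the highest decile.

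The other ionotropic glutamate receptors were examined as the most similar families. AMPA receptors carry the fast synaptic current, and of their 4 pore subunits 0 were called in edgeR's test in either direction, with 0 at an unadjusted p under 0.05 and 0 by DESeq2. The log2 changes were 0.07 for Gria1, -0.15 for Gria2, -0.13 for Gria3 and -0.24 for Gria4, all positive once GC content and length were offset. With block and offset Gria2, whose edited mRNA sets calcium permeability and which has a GC content of 36.8%, rose by 0.60, with an edgeR adjusted p of 4.72e-05. Of the 5 kainate receptor subunits 0 were called either, with 0 higher and 1 lower at an unadjusted p under 0.05 and 0 by DESeq2. Their log2 changes ran from -0.48 ± 0.17 for Grik2 through -0.18 for Grik1, 0.00 for Grik4 and 0.25 for Grik3 to 0.35 ± 0.20 for Grik5, which stood at -0.0060 with the offset. Grik2 was called lower only with the block alone, with an edgeR adjusted p of 0.00161, and turned to 0.19 with the offset. The median log2 change was 0.26 over the NMDA subunits, -0.14 over the AMPA subunits and 0.00 over the kainate subunits, against 0.00 over all genes. With block and offset the medians were 0.21, 0.26 and 0.05, so the AMPA median changed sign, and the families were not tested against each other.

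The partners of the receptor were then described from lists of 70 genes, of which 69 were tested. In edgeR's test 1 rose and 0 fell, with 8 higher and 14 lower at an unadjusted p under 0.05 and with 2 higher and 4 lower by DESeq2. With the block 9 rose and 15 fell, and with block and offset 3 rose and 8 fell. The median log2 change of the 69 was -0.14. Over all genes, 0.71% were called higher and 2.36% lower in edgeR's test, and 15.4% and 17.1% at an unadjusted p under 0.05. The shares were 2.19% and 3.28% by DESeq2, 11.8% and 13.2% with the block, and 9.62% and 6.56% with block and offset. The counts of each list below stand beside these same shares.

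Co-agonist supply held the partner that rose. Slc7a10 encodes Asc-1, an exchanger of D-serine and glycine, and had 97.5, 90.1 and 146 CPM on polyribosomes and 56.6, 56.6 and 53.7 CPM in total RNA, with no overlap. Its log2 change was 0.99 ± 0.20, with an adjusted p of 0.00751 in edgeR's quasi-likelihood test, and it was called with block and offset at 0.58. With the offset alone it was 0.63 and not called, with an edgeR adjusted p of 0.0309. Slc6a9, the glycine transporter GlyT1, had 76.7, 89.6 and 118 CPM against 49.2, 56.9 and 62.3 CPM. Its log2 change of 0.77 missed the threshold, with an edgeR adjusted p of 0.0192, and passed it under DESeq2 (adjusted p = 0.00868) and with the block (edgeR adjusted p = 3.75e-06). Srr, the serine racemase that makes D-serine, was at -0.34, and Slc1a4, a neutral amino acid transporter, at 0.37, both not called. Dao, the oxidase that degrades D-serine, did not pass the filter on low counts.

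Of 13 scaffold genes of the postsynaptic density, 0 were called in edgeR's test, with 2 higher and 2 lower at an unadjusted p under 0.05 and 0 higher and 1 lower by DESeq2. The highest were Dlgap3 at 0.66 (0.30 with the GC and length offset) and Dlg4, which encodes PSD-95, at 0.41 (0.69 with the offset). The lowest were Homer1 at -0.93 (-0.28 with the offset) and Dlg1, which encodes SAP97, at -0.55 (-0.18 with the offset). With the block 4 rose and 2 fell, and with block and offset 1 rose, Dlg4, at 0.70. The offset values rest on the longest annotated transcript. For Dlg4 it has 6326 bases, with a coding sequence of 819 and a 3′UTR of 5463, and for Homer1 5713 bases with 558 and 4349. Which transcripts were present was not measured, so the offset values of these genes depend on that choice. Of 14 anchoring and trafficking genes, 0 were called in edgeR's test, with 1 higher and 3 lower at an unadjusted p under 0.05 and 0 higher and 1 lower by DESeq2. Gipc1 at 0.50 (-0.035 with the offset) and Actn2, an actin-linked partner of GluN1, at 0.42 ± 0.41 (0.19 with the block and 0.025 with block and offset) were the highest. Akap9, the anchor of kinase and phosphatase to GluN1, at -1.01 (-0.59 with the offset) and Lin7a at -0.81 (-0.61 with the offset) were the lowest and were the ones that fell with block and offset.

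Of 21 kinase and phosphatase genes, 0 were called in edgeR's test, with 2 higher and 5 lower at an unadjusted p under 0.05 and 0 by DESeq2. Csnk2b at 0.56 (0.24 with the offset) and Src, a kinase that raises NMDA receptor current, at 0.47 (0.22 with the offset) were the highest. The calcineurin subunits Ppp3cb at -0.90 (-0.46 with the offset) and Ppp3r1 at -0.76 (-0.43 with the offset) were the lowest. With block and offset, 3 fell, namely Ppp3cb, Ppp3r1 and Dapk1. Camk2a, chosen after its value was seen as the kinase that binds GluN2B, had a log2 change of 0.03 ± 0.22. Of 17 genes from calmodulin to ERK, 0 were called in edgeR's test, with 1 higher and 4 lower at an unadjusted p under 0.05 and 0 higher and 2 lower by DESeq2. Map2k2, which encodes MEK2, at 0.65 (0.23 with the offset) and Calm3 at 0.32 (-0.0081 with the offset) were the highest, and Rasgrf2, a calcium-dependent Ras exchange factor, at -0.78 (-0.70 with the offset) and Braf at -0.77 (-0.30 with the offset) the lowest. With block and offset 3 of this list fell, among them Rasgrf2 and Mapk3, which encodes ERK1.

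**Figure D5:**
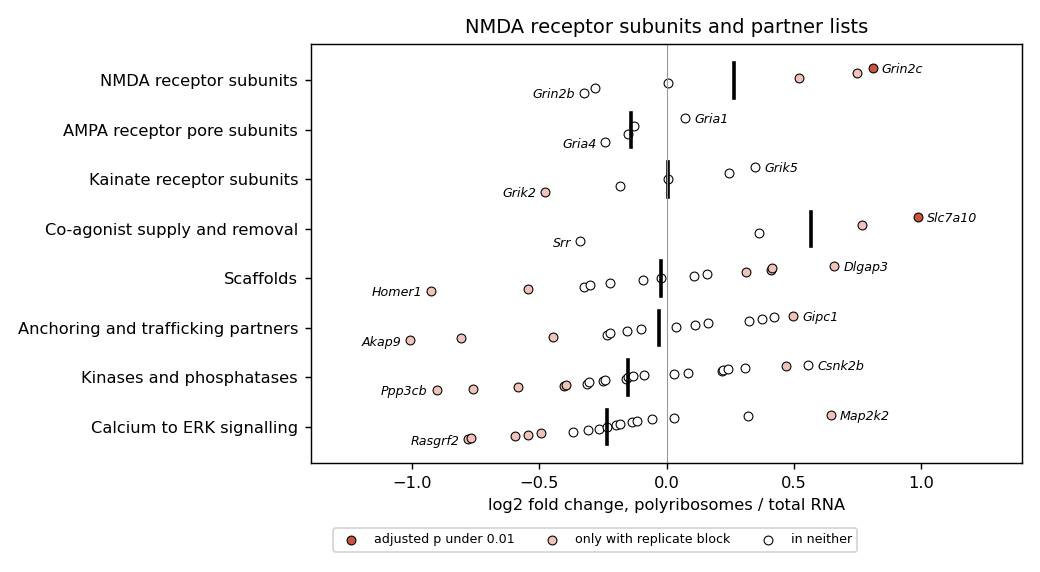
Log2 fold change (polyribosomes over total RNA, horizontal axis) of each tested gene in the NMDA receptor family, the AMPA and kainate families and 5 lists of partners, with bars at the list medians. Filled points passed an edgeR adjusted p under 0.01 with group alone (Grin2c and Slc7a10), pale points only with the replicate block, and open points in neither. The medians of the kinase and ERK lists are -0.15 and -0.23.

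Markers of cell types that the fraction can hold were read beside these results. Of 11 astrocyte markers, 0 were called in edgeR's test, 8 rose with the block and 10 with block and offset, the median log2 change was 0.54, and their summed level was 45348 to 49810 CPM on polyribosomes and 34825 to 40724 CPM in total RNA. Their log2 changes ran from 0.10 for Aqp4 to 1.06 for Aldoc. Of 9 interneuron markers, 0 were called in edgeR's test, 4 rose and 2 fell with the block, and log2 changes ran from -0.66 for Gad2 to 1.17 for Npy, with summed levels of 778 to 1258 CPM on polyribosomes and 685 to 900 CPM in total RNA. Of 9 oligodendrocyte markers, 1 rose in edgeR's test, Cldn11 at 0.83, and the lowest was Mobp at 0.18. With the block 6 of them rose, their median log2 change was 0.54, and they summed to 11222 to 15071 CPM on polyribosomes and 8058 to 11198 CPM in total RNA. Of 7 excitatory neuron markers 0 were called, 4 had a positive log2 change, 2 rose and 1 fell with the block, and the highest was Nrgn at 0.87. They summed to 2164 to 2329 CPM on polyribosomes and 1569 to 1843 CPM in total RNA. Of 9 microglia markers and 8 endothelial markers 0 were called, from 0.02 for P2ry12 to 0.72 for C1qa and from -0.36 for Tek to 0.92 for Cldn5. With the block 4 microglia and 2 endothelial markers rose. With block and offset, 4 interneuron, 4 oligodendrocyte, 2 excitatory neuron, 4 microglia and 1 endothelial markers rose. Of the excitatory neuron markers 1 fell in that fit, and of the interneuron markers 0. Microglia markers summed to 941 to 1086 CPM on polyribosomes and 604 to 844 CPM in total RNA, and endothelial markers to 525 to 969 and 500.0 to 519 CPM. The summed levels thus did not overlap between the groups, and were higher on polyribosomes, for every list but the interneuron markers. The separation was narrow for oligodendrocyte markers (11222 against 11198 CPM in the nearest libraries) and endothelial markers (525 against 519 CPM). Summed over all tested genes, the level was itself 993326 to 1087375 CPM on polyribosomes and 925660 to 999064 CPM in total RNA, with a small overlap. Taken singly, 17.4% of all genes had all polyribosome libraries above all total RNA libraries. Over all genes 0.71% were called higher in edgeR's test, 11.8% with the block and 9.62% with block and offset. Called lower were 2.36%, 13.2% and 6.56%. No marker was at 0 in all libraries, and the part of these cells in the subunit values was not tested. The groups are different RNA fractions of synaptoneurosomes. A marker difference between them therefore does not measure the number of cells of a type. Stimulation, handling and fraction cannot be told apart for the markers either.

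The subunits fell into sets that varied together over the 6 libraries, and the correlations of log2 CPM are given as a description, since the points share libraries and groups. Grin1, Grin2c and Grin2d correlated with each other at r = 0.93 to 0.97, and Grin2a with Grin2b at 0.89. Grin3a correlated negatively with each of the other subunits, from -0.27 with Grin2c to -0.69 with Grin2b. Among the 6313 tested genes whose normalized counts averaged 100 or more, the most similar were Arpc3, Ttyh2 and Paqr7 for Grin1, Rcan2, Ncl and Mtus1 for Grin2a, and Tnrc6c, Zfp142 and Coro2b for Grin2b. For Grin2c they were Pfn1, Slc22a17 and Dos, for Grin2d Rps16, Lrp3 and Ssr4, and for Grin3a Slc44a1, Adam10 and Galnt1. All of these had r of at least 0.97 over the 6 libraries. Pfn1, the actin-binding profilin, rose with a log2 change of 1.07 ± 0.19 and an adjusted p of 0.00455 in edgeR's quasi-likelihood test, and the other 17 were not called. Over all genes, that test called 0.71% higher and 2.36% lower. Since these genes were picked by likeness to a subunit over the same libraries, their calls are not a result independent of that choice.

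The libraries held 5294482 to 7361580 counts on polyribosomes and 1044955 to 3738022 in total RNA, with total RNA replicate 3 the shallowest, and the 6 subunits took 0.361% to 0.435% of counts on polyribosomes and 0.426% to 0.537% in total RNA. Replicates of a group differed by more than sampling noise.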

How the data were processed

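RNA of 3 polyribosome and 3 total RNA libraries of mouse synaptoneurosomes was sequenced after ribosomal RNA depletion. Per the labels, CASAVA 1.8.2, STAR 2.5.2b, HTSeq, bedtools, SAMtools and DESeq2 were used by the submitters. The authors mapped the reads to GRCm38, counted them per gene on Gencode vM6 basic and deposited raw counts of protein-coding genes, without normalization. The same deposited table holds the comparison made by the authors, namely a mean normalized signal, a log2 fold change, its standard error and a test score, and raw and adjusted p-values. None of these columns was used. The study's methods describe strand-specific libraries and the labels name a TruSeq kit, and the use of strand in counting is not given in the sources used here.

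Counts were normalized by TMM in edgeR 4.0.16 (R 4.3.3), filtered with filterByExpr and tested with its quasi-likelihood test, fitted on group alone, with Benjamini-Hochberg adjustment over all 12255 genes at a threshold of 0.01, that of the study. CPM are counts scaled by TMM library size, SE are those of the fit, and log2 CPM used a prior count of 2. Alternatives were RLE size factors, library totals alone, DESeq2 1.42.0, no filter, the replicate block, a smooth offset per library on transcript GC content and length (mgcv 1.9.3, Gencode vM21, values for 99.6% of genes), leaving out each library, and a threshold of 0.05. The headers of same-numbered libraries begin alike, and over genes these pairs departed from their group means together, at correlations of 0.37, 0.26 and 0.38, and were treated as pairs. Ratios were tested by exact permutation over libraries. The edgeR test on group alone was tried on simulated counts with 200 genes changed by 1.5 on the log2 scale. It recovered 93% of them, with 1 false call. Smaller changes, the block, the offset and the ratios were not simulated.

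The subunits and gene lists were chosen with earlier results of these data known. Named were all subunits and glutamate receptor genes, from each partner list the called genes or otherwise the 2 highest and 2 lowest, from each marker list the highest and lowest (some genes that the rule names are not reported here), and per subunit the 3 genes closest in log2 CPM. Library totals ranged from 1044955 to 7361580 counts.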

Additional observations from a re-analysis of the deposited data

How the results depend on the processing

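The number of subunits called higher (1) became 0 with library totals alone and with the GC and length offset, 3 with the replicate block, 2 at an adjusted p under 0.05, and 0 without any single library, with the range 0 to 0; no subunit was called lower under any alternative. Over all genes, 87 higher and 289 lower calls (376) became 42 and 366 with library totals alone, 268 and 402 (670) with DESeq2, 476 and 566 (1042) without a filter, 1441 and 1622 (3063) with the replicate block, 38 and 85 (123) with the offset, 1179 and 804 (1983) with the block and offset, and 799 and 1085 (1884) at 0.05. Leaving out single libraries gave 0 to 61 higher, 22 to 208 lower and 22 to 258 in all, the fewest without total RNA replicate 2. The cause of these changes was not tested.

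The log2 change of Grin2a turned to 0.18 with the offset and 0.17 with the block and offset, and that of Grin2b to 0.17 and 0.17. That of Grin3a turned to -0.094 with library totals alone and ranged from -0.13 to 0.16 without single libraries. Grin2b to Grin2a ranged from -0.12 to 0.047 without single libraries. Grin2a to Grin1 and Grin2b to Grin1 moved to -0.085 and -0.089 with the offset. The cause was not tested.

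Grin1, Grin2c and Grin2d were positive under every alternative run. Library totals alone moved the median of all genes to -0.11. Total RNA replicate 3 was the shallowest library, with 1044955 counts, and Grin2d had 27 counts there. The block changed no other call of a subunit than those given.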
